A study of Mus musculus with 18 samples.

Results

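The response to mouse Dux beyond doxycycline and a control protein was measured as a difference between 2 responses in C2C12, a mouse myoblast line. For every gene, the log2 change with doxycycline in a line carrying firefly luciferase was subtracted from the log2 change with doxycycline in a line carrying mouse Dux. The rule used no measured value. Of 24028 genes in the deposited table, 13602 passed the filter on low counts and were tested, and 12 of the 18 libraries of the series entered the contrast. The question was which genes responded to Dux itself rather than to the drug or to the making of a foreign protein.

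The mouse Dux line was a clone with a codon-altered mouse Dux transgene, and the luciferase line was a clone with a firefly luciferase transgene, a light-producing enzyme foreign to mouse cells. Both transgenes were switched on by doxycycline, and both lines were grown with puromycin, which keeps cells that carry the transgene. For induction, 2 µg/ml doxycycline was present for 36 h, and the control cultures of each line had no doxycycline. Each of the 4 groups held 3 separate cultures. Each transgene was carried by 1 clone, so transgene, clone and line cannot be told apart, and transgene reads were not analysed here.

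Dux encodes a double-homeobox transcription factor that is active for a short time in the 2-cell mouse embryo, when the embryo's own genome is switched on. It binds DNA next to genes of that stage, among them the Zscan4 family, and raises their transcription. Its human counterpart DUX4 is known for its toxicity when it is made in skeletal muscle.

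Total counts of the 12 libraries ran from 11010586 to 17179642. Values are given as CPM, counts scaled by each library's total after TMM adjustment, in the order of libraries 1, 2 and 3. Myoblast markers were present in both lines. Myod1, Des, Cdh15, Chrna1, Itga7 and Ncam1 had counts in all 12 libraries, the lowest value being 49.9 CPM for Cdh15 in induced Dux library 3. Myf5, a myogenic regulator, was at 104.6 CPM in uninduced luciferase libraries and only 0.258 CPM in uninduced Dux libraries. Of 30 listed markers of other cell types, 10 were tested. Adgre1, Hbb-bs and Cd3e, which mark macrophages, red cells and T cells, had no count in the 12 libraries. The summed level of the 10 was 115.7 to 120.6 CPM in uninduced and 136.5 to 139.8 CPM in induced Dux libraries, and 100.6 to 102.6 CPM in uninduced and 87.9 to 92.0 CPM in induced luciferase libraries.

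Both Dux libraries numbered 1 stood apart from their replicates. Chi-square per degree of freedom over 6585 genes was 55.7 and 61.5 between induced library 1 and libraries 2 and 3, against 2.49 between libraries 2 and 3. In the uninduced group these values were 8.08, 8.28 and 1.4, and luciferase pairs lay between 1.58 and 3.64. In induced library 1 the deviation from the mean of induced libraries 2 and 3 followed transcript length (Spearman −0.793 across 6418 genes, a description of this library). Its median was 0.26 (log2) in the shortest 25% of transcripts and −0.40 in the longest 25%. Without both libraries, 4405 genes had a higher and 4462 a lower response difference. Of 131 named genes called in the difference, 130 were called in the same direction without them, and 120 of the 131 moved by less than 0.25 (log2). Most of these genes were chosen for large values in the fit with those libraries. Such agreement was therefore favoured in advance and says little about genes with small differences.

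More genes were called in the response to mouse Dux than in the response to luciferase, and most of the large response differences were higher. The response difference was higher in 4139 genes (30.4% of those tested) and lower in 4017 (29.5%), by the quasi-likelihood test of edgeR at an adjusted p under 0.05. With a size of at least 2 on the log2 scale as well, 847 genes (6.23%) were strongly higher and 316 (2.32%) strongly lower. A difference of at least 4 was found in 321 genes upward and 30 downward. The Dux response alone gave 4643 genes higher (34.1%) and 4728 lower (34.8%). The luciferase response gave 2004 higher (14.7%) and 2224 lower (16.4%), of which 36 and 134 changed by at least 2. These shares over all genes tested are the background to each count of list members below. The median difference over all genes tested was 0.011. When libraries were scaled by their size alone, without TMM, that median became −0.25 and the calls became 2832 higher and 5972 lower, so that 32.2% of called genes were higher against 50.7%. Changes below are relative to the TMM scaling. All p-values rest on the variation among cultures, estimated in common although the groups varied unequally (median coefficient of variation 9.08% in induced and 4% in uninduced Dux libraries, 2.98% and 2.82% in luciferase libraries).

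A higher response difference does not mean that a gene rose with Dux. The responses to Dux and to luciferase share no library, and across genes they were nearly unrelated (Pearson r 0.0251 and Spearman rho 0.00504 over 13602 genes, which are not independent replicates). Both rose in 704 genes and both fell in 920. In 711 genes the Dux response was higher while the luciferase response was lower, and in 851 genes the reverse held. Genes of the 2-cell embryo rose in the Dux line, G2 and M-phase genes fell far more in the luciferase line, and cholesterol synthesis genes fell in both lines.

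**Figure D1:**
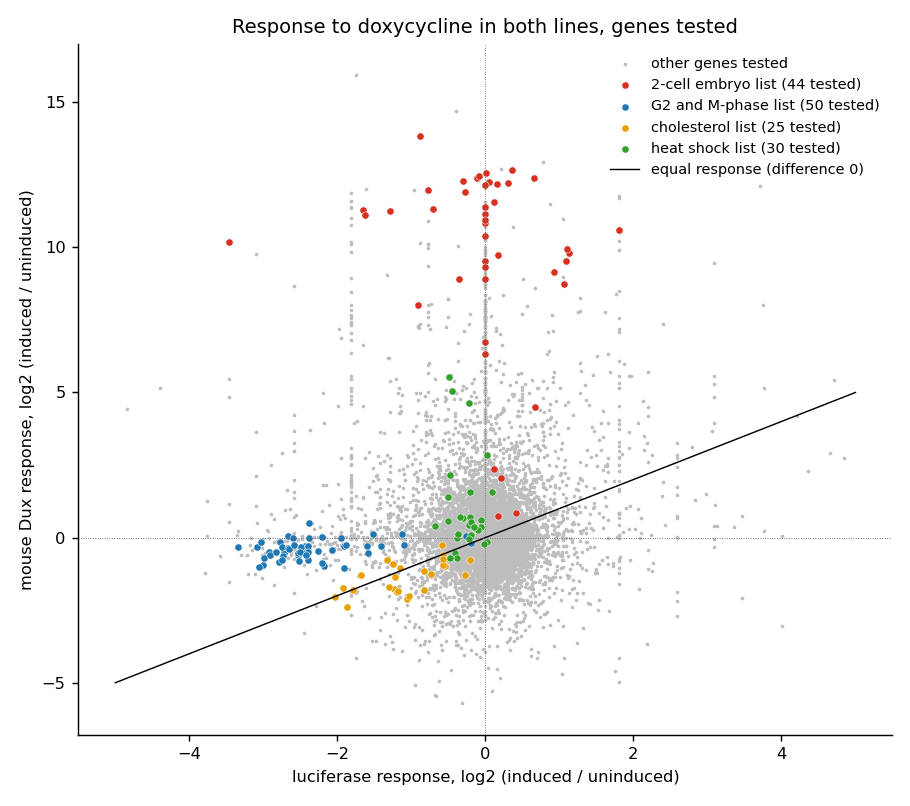
Response to doxycycline of each gene tested, in the luciferase line (x axis, log2 induced over uninduced) and in the mouse Dux line (y axis, log2), with 4 gene lists in colour and a line where both are equal. The response difference is the vertical distance from that line: 2-cell genes lie far above it at the top, G2 and M-phase genes lie above it at the left, and cholesterol genes lie near it. Vertical rows of points are genes with a few or no luciferase counts, whose fitted values depend on the prior count.

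Genes of the 2-cell embryo rose in the Dux line, many of them from near 0 CPM, while their median luciferase response was 0. Of the 44 tested, 14 had 3 counts or fewer in each luciferase group, so that median is no measured lack of response. In bulk RNA, more cells expressing a gene and more RNA per cell cannot be told apart, and the same holds for every fall below. Zscan4c, which encodes a zinc finger protein of the 2-cell embryo (chromosome 7, 11005745 to 11010547, Entrez 245109), measured 3.90, 2.96 and 3.12 CPM in uninduced and 18940, 18000 and 19140 CPM in induced Dux libraries. In luciferase libraries it measured 3.29, 3.11 and 3.66 CPM before and 3.30, 2.58 and 3.52 CPM after doxycycline. Only the 3 induced Dux libraries were high, and the luciferase groups overlapped. The response difference was 12.56 (log2, SE 0.203, adjusted p = 6.87e-19), or 12.65 without both Dux libraries numbered 1.

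The stretch of the Zscan4c promoter below holds a 9-letter version of the Dux binding motif, TGATTNAAT, in capitals. It lies 184 to 176 bases before the gene start, on the plus strand, at chr7:11005501-11005629 of GRCm38.p6, as given by RefSeq. BC080695, a gene on the same list, carries the motif on both strands, and its stretch at chr4:143567264-143567392 is shown beside it.
Zscan4c: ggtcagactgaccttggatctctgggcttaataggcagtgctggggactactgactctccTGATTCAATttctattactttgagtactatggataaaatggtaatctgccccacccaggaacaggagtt
BC080695: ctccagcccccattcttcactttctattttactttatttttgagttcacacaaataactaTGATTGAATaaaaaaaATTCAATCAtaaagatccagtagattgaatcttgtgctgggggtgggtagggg

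Of 44 tested genes of the 2-cell list 27 had an entry in the promoter table, and 7 of these (25.9%) held TGATTNAAT on either strand in the 250 bases before the gene start. The share was 0.77% over all 27025 promoters of the table. It was 0.427% over the 10773 tested genes with an entry, 1.79% among the genes with a strongly higher difference (11 of 616) and 0.455% among those strongly lower (1 of 220). The full motif, with the letters CA added, was found in 0 of the 27 and in 0.037% of all promoters. The 7 genes were Zscan4c, Zscan4f, Zscan4b, BC080695, Gm13057, Gm13119 and BB287469. Around the motif, Gm13057 has the same letters as BC080695, and Gm13119 nearly the same. Zscan4f likewise has nearly the letters of Zscan4c. These copies are not independent promoters, so the share of 25.9% counts related sequences more than once.

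Of the 44 genes 36 had a higher response difference and 0 a lower one, with a median of 11.05. The Dux response rose in 43 of them (median 10.89, or 10.61 with genes without uninduced counts at their bound). The luciferase response rose in 7 (15.9%, near the 14.7% of all genes tested) and fell in 0 (median 0). Over the 23 members with more than 3 counts in every group the median difference was 11.75 and the median luciferase response 0.157. The 8 genes with no call in the difference were AF067063, D5Ertd577e, Tdpoz1, Arg2, Slc34a2, Ubtfl1 and Lmx1a, with 0 or 1 count in the luciferase line, and Dppa2, with 5 counts in induced Dux libraries. Genes of the list that rose in both lines included Gm5662, from 5.54 to 2324 CPM with Dux and from 17.2 to 35.8 CPM with luciferase, which left a difference of 7.67. Of the other 6 of that kind, Gm8300, Gm2022, BB287469 and Gm5039 rose by 0.92 to 1.13 (log2) with luciferase.

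The summed level of the list went from between 193.8 and 215.5 CPM to between 136800 and 153100 CPM in Dux libraries, and from between 223.5 and 241.6 to between 273.6 and 295.2 CPM in luciferase libraries. Families of near-identical genes were also summed, since their reads may be divided wrongly between copies. The 5 Zscan4 genes together went from 11.8 ± 2.91 to 65340 ± 2030 CPM (SD, n = 3) with Dux, and from 10.99 ± 1.25 to 11.3 ± 1.42 CPM with luciferase. The 5 Usp17l genes, which encode deubiquitinating enzymes, went from 3.56 ± 0.465 to 3133 ± 59.5 CPM with Dux and stayed at 2.053 ± 0.486 and 2.01 ± 0.104 CPM in the luciferase line. The 11 Prame family genes went from 37.7 ± 1.65 to 4090 ± 291 CPM with Dux and measured 54.1 ± 3.06 and 58.2 ± 2.76 CPM with luciferase. The groups of the Dux line did not overlap for any of the 3 families. In induced Dux libraries the 10 most abundant genes took 13.0% ± 0.713 of all counts, against 4.55% ± 0.026 in uninduced ones.

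Other genes shared this pattern. BC061212 (chromosome 5, 94066454 to 94070545) measured 0.340, 0.348 and 0.637 CPM before and 2004, 1707 and 1770 CPM after induction of Dux, with 0.346, 0.122 and 0.552 and 0.249, 0.258 and 0 CPM in the luciferase groups. Its difference of 12.94 (SE 0.973) was the highest among genes with more than 3 counts in every group. A430089I19Rik followed at 12.48, and Gm4340, Gm21312 and Gm4312 lay at 12.16, 12.16 and 12.05. Gm13078 had no count in the 3 uninduced Dux libraries and 569.5, 471 and 498 CPM in induced ones, which is at least 7680-fold higher by a floor of 3 counts over the group. Alk, a receptor tyrosine kinase gene, went from no count to 33.01, 40.3 and 37.1 CPM, at least 546-fold higher, while its luciferase values were 0, 0.0609 and 0.0691 CPM before and 0.560, 0.387 and 0.954 CPM after doxycycline. Its difference of 8.42 (adjusted p = 0.0139) lost its call without uninduced luciferase library 2 (8.08, adjusted p = 0.0686) or 3 (8.02, adjusted p = 0.0696). Gm8994 and Gm13128 were at least 976-fold and 765-fold higher with Dux. Gm13128 had no count in the luciferase line, and its fitted difference, which depends on the prior count, was not called (adjusted p = 1). The call on the Gm8994 difference was lost without uninduced luciferase library 1, which held 1 count (10.36, adjusted p = 1).

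Most heat shock genes rose with Dux, and most fell with luciferase, though not always the same ones. They encode chaperones that hold or refold other proteins. The inducible chaperone gene Hspa1a (chromosome 17, 34969359 to 34972156) measured 30.4, 29.8 and 31.9 CPM in uninduced and 1538, 1476 and 1279 CPM in induced Dux libraries. The luciferase libraries went from 38.0, 39.9 and 39.0 CPM to 26.7, 27.9 and 28.6 CPM. No groups overlapped in either line, and the responses were 5.54 and −0.49, a difference of 6.03 (SE 0.0998, adjusted p = 6.87e-19). Reads may be shared with the near-identical Hspa1b (5.51). Summed, both genes went from 82.5 ± 2.78 to 3148 ± 292 CPM with Dux and from 97.6 ± 3.33 to 70.5 ± 3.28 CPM with luciferase.

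The Hspa1a promoter stretch below, at chr17:34972193-34972320 on the minus strand of GRCm38.p6 (RefSeq), shows in capitals a match to the heat shock element core GAANNTTC, 104 to 97 bases before the gene start.
Hspa1a: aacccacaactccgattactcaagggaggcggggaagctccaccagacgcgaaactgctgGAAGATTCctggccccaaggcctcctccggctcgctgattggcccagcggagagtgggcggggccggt

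Among 25 heat shock genes with a promoter entry, 9 (36.0%) held GAANNTTC, against 7.73% of all promoters and 6.13% of those of genes tested. The share of 36.0% counts some sequences more than once. Hspa1a and Hspa1b have the same letters around the motif, and Hspd1 and Hspe1 share the same stretch, read from opposite strands. Of 30 heat shock genes tested, 24 had a higher (80% against 30.4% of all genes) and 3 a lower difference (10% against 29.5%, median 0.67). With Dux 21 rose and 5 fell (median 0.41), and with luciferase 0 rose and 20 fell (median −0.22). In 14 of them the Dux response was higher and the luciferase response lower. Hspa1l, a relative of Hspa1a in the same cluster, had a difference of 4.87, and the testis-type member Hspa2 rose from 13.0 to 93.6 CPM with Dux and was at 19.2 and 19.5 CPM in the luciferase groups (2.83). The summed level of the list went from between 8473 and 8662 to between 15180 and 15870 CPM in Dux libraries and from between 8651 and 8958 to between 7259 and 7351 CPM in luciferase libraries.

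Most immediate early genes, transcription factors and phosphatases that respond within minutes to signals, also rose with Dux. Fos (chromosome 12, 85473890 to 85477274), a subunit of AP-1, measured 1.53, 1.33 and 1.15 CPM in uninduced and 63.3, 50.8 and 49.0 CPM in induced Dux libraries. The luciferase libraries were at 4.04, 3.72 and 3.87 CPM before and 6.16, 4.45 and 4.95 CPM after doxycycline (0.42, adjusted p = 0.081). The induced Dux libraries stood far above all others, and the difference was 4.94 (SE 0.267). Nr4a1, Nr4a2 and Dusp6, for 2 orphan nuclear receptors and a MAP kinase phosphatase, had differences of 3.30, 3.03 and 3.15. Of 27 genes 22 were higher (81.5% against 30.4% of all genes tested) and 3 lower (11.1% against 29.5%) in the difference (median 1.26). With Dux 23 rose and 2 fell, and with luciferase 9 rose and 4 fell (median 0.14). TGACGT, the core of the cyclic AMP response element, lay in 7 of 20 promoters of the list (35.0%) against 7.29% of all and 11.3% of those of genes tested, and the AP-1 motif TGANTCA, which overlaps the Dux motif where its letters are TGATTCA, in 0 of 20 against 7.82% and 5.85%.

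Genes of the integrated stress and unfolded protein responses, which cells raise when protein folding or amino acid supply falters, mostly rose in both lines. Of 37 tested, 31 rose and 2 fell with Dux (median 0.88), 27 rose and 7 fell with luciferase (median 0.68), and 24 rose in both. The difference was higher in 22 (59.5% against 30.4% of all genes tested) and lower in 7 (18.9% against 29.5%, median 0.52). Trib3, a pseudokinase gene raised by ATF4, went from 7.55, 6.15 and 5.80 to 44.9, 48.0 and 44.3 CPM with Dux and from 23.1, 21.0 and 23.6 to 137, 79.5 and 106 CPM with luciferase. It rose in all 6 induced libraries over their uninduced groups, and the difference of 0.58 (adjusted p = 0.035) lost its call without any one of 6 single libraries (values 0.50 to 0.57), with library size alone (0.32) and with only the compared groups in the fit (0.58, adjusted p = 0.0582). Atf3, a stress-induced transcription factor gene, also rose in both lines, but more with Dux: its responses were 6.26 and 1.51, and its difference 4.75 (SE 0.301). It went from 0.509, 0.986 and 0.446 to 59.1, 46.9 and 49.7 CPM with Dux and from 4.38, 4.02 and 3.38 to 13.4, 9.04 and 11.2 CPM with luciferase. Ppp1r15a, whose product reverses the translational block of this response, had responses of 3.01 and 0.74. Sdf2l1, an endoplasmic reticulum chaperone gene, rose with Dux (0.95) and fell with luciferase (−0.53).

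The matrix and cytoskeleton genes Ankrd1, Ctgf and Cyr61 and the hyaluronan gene Has2 rose with Dux and fell with luciferase. Ankrd1 (chromosome 19, 36111965 to 36119844), which encodes a muscle ankyrin repeat protein and is a target of the YAP and TEAD transcription factors, measured 209.7, 206 and 194 CPM in uninduced and 1759, 1604 and 1682 CPM in induced Dux libraries. In luciferase libraries it went from 169, 164 and 186 CPM to 97.5, 82.0 and 95.3 CPM. The groups did not overlap in either line, and the difference was 3.96 (SE 0.0897, adjusted p = 3.63e-17). Ctgf and Cyr61, genes of secreted matricellular proteins and textbook YAP targets, followed the same course. Ctgf went from 1.78, 2.09 and 2.61 to 48.0, 42.6 and 43.7 CPM with Dux and from 51.9, 48.0 and 55.9 to 22.3, 24.2 and 23.9 CPM with luciferase (difference 5.50, SE 0.142). The clones thus differed before induction, and induced Dux libraries reached about the level at which uninduced luciferase libraries began. Cyr61 went from 95.2 to 811 CPM with Dux and from 174 to 116 CPM with luciferase (3.68).

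The Ankrd1 promoter stretch below, at chr19:36119975-36120094 on the minus strand of GRCm38.p6 (RefSeq), shows in capitals the first of 2 matches to the TEAD motif GGAATG, 210 to 205 bases before the gene start.
Ankrd1: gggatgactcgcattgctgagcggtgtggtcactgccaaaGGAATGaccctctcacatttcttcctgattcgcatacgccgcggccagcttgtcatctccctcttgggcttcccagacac

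GGAATG lay in 9 of 20 YAP and TEAD target promoters (45.0%), in 14.4% of all and in 12.9% of those of genes tested. The list as a whole did not move one way. Of 28 members 12 were higher (42.9%) and 9 lower (32.1%) in the difference, against 30.4% and 29.5% of all genes tested (median 0.22). With Dux 15 rose and 10 fell, and with luciferase 5 rose and 7 fell. With library size alone the median of the list turned to −0.040. Nt5e, a surface enzyme gene of the list, fell with Dux (−1.68) and rose with luciferase (0.48).

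Has2 (chromosome 15, 56665627 to 56694546), the main hyaluronan synthase gene, measured 24.4, 23.9 and 19.5 CPM in uninduced and 359, 380.3 and 399.8 CPM in induced Dux libraries. With luciferase it went from 111, 101 and 112 CPM to 71.4, 76.5 and 77.3 CPM. Again the groups were apart in both lines, and the difference was 4.59 (SE 0.1001, adjusted p = 2.71e-17). Ugp2, whose enzyme makes a precursor of a hyaluronan building block, rose from 85.5 to 271 CPM with Dux (difference 1.97). Tmem2, which encodes a surface hyaluronidase, had a difference of 1.40. Its induced Dux values were 158, 235 and 239 CPM, with library 1 the lowest. Of 13 hyaluronan genes 7 were higher (53.8% against 30.4% of all genes tested) and 3 lower (23.1% against 29.5%) in the difference (median 0.78). Among the 7 was Hmmr, a hyaluronan-binding protein that acts in mitosis, which fell in both lines (−0.41 with Dux and −2.65 with luciferase).

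Mmp2 (chromosome 8, 92827290 to 92853421), which encodes a secreted protease that cuts collagen, moved the other way. It measured 496, 489 and 492 CPM in uninduced and 109, 109.8 and 114 CPM in induced Dux libraries, and 569.8, 579 and 559 CPM before and 786, 802 and 788 CPM after doxycycline in the luciferase line. It fell in all 3 induced Dux libraries and rose in all 3 induced luciferase libraries, with no overlap between groups. The difference was −2.63 (SE 0.0573, adjusted p = 2.71e-17).

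**Figure D2:**
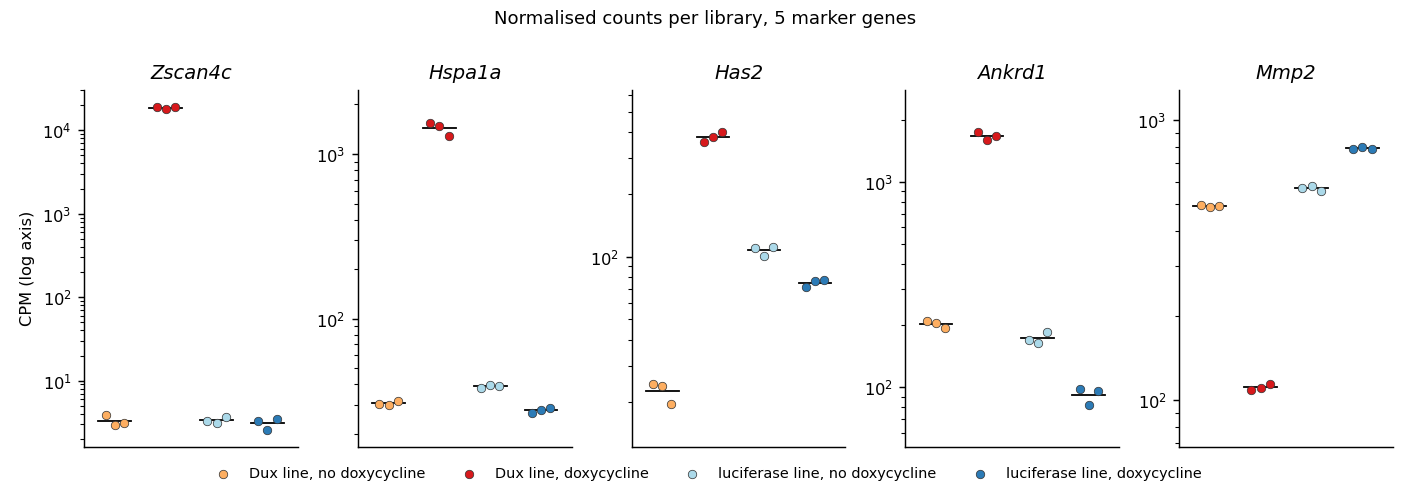
Normalised counts (CPM, log axes) of 5 genes in each of the 12 libraries, with the group mean as a bar and libraries 1, 2 and 3 from left to right within a group. The induced Dux libraries of Zscan4c lie between 18000 and 19140 CPM and all other libraries at or under 3.91 CPM. Mmp2 is the 1 gene of the 5 that is lowest in induced Dux libraries, at 109 to 114 CPM.

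Matrix metalloproteases and their inhibitors were split. Mmp17, for a membrane-anchored metalloprotease, went from 1.87, 1.74 and 1.15 to 68.2, 71.6 and 66.7 CPM with Dux and had 0.868 and 0.537 CPM in the luciferase groups (difference 6.14, SE 0.305). Timp1, an inhibitor of these proteases, rose from 94.2, 90.0 and 97.6 to 666, 497 and 506 CPM (difference 2.80), and Mmp15 fell from 9.80 to 1.23 CPM (−2.50). Of 24 members 5 were higher (20.8%) and 11 lower (45.8%) in the difference, against 30.4% and 29.5% of all genes tested (median −0.23).

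Collagens and small proteoglycans, the fibres of the matrix and the proteins that coat them, had lower differences more often than higher ones. Of 42 matrix genes 9 were higher (21.4% against 30.4% of all genes tested) and 23 lower (54.8% against 29.5%, median −0.37). Without both Dux libraries numbered 1 the higher count was 14. With Dux 9 rose and 28 fell, with luciferase 7 rose and 20 fell, and 15 fell in both. Prelp, a small proteoglycan gene, went from 13.2, 12.5 and 12.4 to 1.91, 1.65 and 0.879 CPM with Dux and from 99.5, 100.3 and 100.1 to 167, 166 and 179 CPM with luciferase (difference −3.85, SE 0.144). Decorin, encoded by Dcn, fell from 4.36 to 0.962 CPM in the Dux line and rose from 139 to 281 CPM in the luciferase line (−3.17). Both genes were far lower in the Dux clone before induction. Cilp, a cartilage matrix gene, fell from 11.6 to 0.264 CPM (−4.76). Lama4, a laminin chain gene with a difference of 3.05, was at 1.51, 1.20 and 1.25 CPM in induced Dux libraries, below both luciferase groups (8.92 and 10.1 CPM). Its difference was 3.97 without both Dux libraries numbered 1.

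Genes of Wnt modulators and of the IGF axis included some of the lowest differences. Sfrp2 (chromosome 3, 83765750 to 83774314), a secreted antagonist of Wnt signals, measured 326, 304 and 302 CPM in uninduced and 13.5, 10.6 and 8.50 CPM in induced Dux libraries. The luciferase line was low throughout, at 7.44, 7.80 and 5.80 CPM before and 7.53, 8.91 and 7.93 CPM after doxycycline, and its groups overlapped. The difference was −5.03 (SE 0.178, adjusted p = 2.14e-14). Igf1, for the growth factor, went from 17.7, 17.2 and 17.2 to 0.723, 1.13 and 1.39 CPM with Dux and lay at 20.8, 23.5 and 23.3 and 18.6, 23.2 and 20.3 CPM in the luciferase groups (−3.89, SE 0.185). All 3 induced Dux libraries were below all 3 uninduced ones. Igfbp5, for an IGF-binding protein, fell from 1416, 1519 and 1533 to 173, 288 and 293 CPM with Dux and rose from 2391 to 3398 CPM with luciferase (−3.08). Sfrp4, a relative of Sfrp2, rose with Dux from 0.543 to 3.49 CPM (2.58). Of 30 genes of Wnt modulators and the IGF axis 10 were higher (33.3%) and 14 lower (46.7%) in the difference (median −0.39). Over all genes tested the shares were 30.4% and 29.5%.

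Other genes among the 12 lowest fell with Dux from different starting levels. Fmo1, for a flavin monooxygenase, fell from 198, 209 and 201 to 13.0, 10.4 and 11.7 CPM in the Dux line and stayed near 5.49 CPM in the luciferase line (−4.04). Plin4, for a lipid droplet coat protein, fell from 137 to 16.5 CPM with Dux and rose from 15.2 to 31.4 CPM with luciferase (−4.10). Spon2, for a matrix protein, did likewise (−4.48). Pik3ip1, a negative regulator of PI3 kinase, and Lix1 had differences of −3.79 and −3.67, and A330074K22Rik one of −4.69.

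Single regulators of cell death had large response differences in both directions. Pmaip1, which encodes the pro-apoptotic protein Noxa, measured 5.69, 4.82 and 5.54 CPM in uninduced and 852, 738 and 801 CPM in induced Dux libraries. It stayed at 23.4, 24.6 and 24.2 and 29.1, 24.5 and 25.9 CPM in the luciferase groups, which overlapped, and the difference was 7.09 (SE 0.155, adjusted p = 2.71e-17). The pro-apoptotic genes Bcl2l11, Bmf and Bbc3 fell with Dux and rose with luciferase. Bcl2l11, for Bim, went from 41.5, 41.5 and 43.6 to 12.4, 12.8 and 13.5 CPM with Dux and from 47.7, 48.6 and 43.9 to 68.2, 75.5 and 69.5 CPM with luciferase (−2.32). Bmf and Bbc3, which encodes Puma, had differences of −2.02 and −1.82. The anti-apoptotic Bcl2 rose with Dux (2.13) and was at 0.23 with luciferase, a call (adjusted p = 0.0324) that was lost with DESeq2 and without any one of the 6 luciferase libraries (adjusted p 0.062 to 0.0902). Of 15 BCL2 family genes 3 were higher (20%) and 5 lower (33.3%, median −0.092), and the lower count was 9 without both Dux libraries numbered 1. Of 32 p53 regulators and targets, 11 were higher (34.4%) and 15 lower (46.9%, median −0.10). Over all genes tested the shares were 30.4% and 29.5%. Plk3, a stress kinase gene, was at 3.97 and Perp, a membrane protein gene of this group, at −2.45.

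Genes of DNA replication and mitosis had higher response differences almost throughout, with larger falls in the luciferase line than in the Dux line. Of 50 G2 and M-phase genes 49 were higher and 0 lower in the difference (median 2.00). With luciferase 50 of 50 fell (median −2.48). With Dux 1 rose and 38 fell (median −0.38), so 38 fell in both lines. Bub1 (chromosome 2, 127800197 to 127831859), a kinase gene of the spindle checkpoint, measured 72.2, 74.0 and 73.2 CPM in uninduced and 59.98, 53.9 and 59.3 CPM in induced Dux libraries. In the luciferase line it went from 25.2, 24.7 and 24.3 CPM to 2.80, 2.904 and 3.04 CPM. It fell in both lines with no overlap, by 0.34 (log2) with Dux and by 3.08 with luciferase, and the difference was 2.74 (SE 0.0995, adjusted p = 3.15e-14). Kif2c, for a kinesin that takes microtubules apart, went from 53.1, 56.5 and 52.5 to 49.2, 48.0 and 49.5 CPM with Dux and from 32.2, 31.0 and 32.7 to 3.11, 4.32 and 4.29 CPM with luciferase (2.88). Its Dux response (−0.15, adjusted p = 0.0385) lost its call with DESeq2, with median-of-ratios scaling and with only the compared groups in the fit. The call was also lost without induced or uninduced Dux library 2 (−0.13 and −0.11). Ccnb1, for cyclin B1, measured 128, 128 and 123 and 129, 99.1 and 109 CPM in the Dux groups, which overlapped (−0.17, adjusted p = 0.0723, but called at −0.18 with a replicate block, −0.29 without both libraries numbered 1 and −0.41 with library size alone), and 39.4, 39.1 and 42.7 and 4.73, 5.87 and 6.97 CPM in the luciferase groups (2.61). Aurkb, Nusap1, Kif11 and Birc5, also of the mitotic spindle, had differences of 3.01, 2.03, 2.06 and 2.32 with luciferase responses of −2.91 to −3.34. Mybl2, a transcription factor gene, was the 1 member that rose with Dux (0.49).

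The summed level of these 50 genes was 4552 to 4903 CPM in uninduced and 3266 to 3579 CPM in induced Dux libraries, and 1674 to 1795 CPM in uninduced and 400.3 to 456.5 CPM in induced luciferase libraries. The luciferase clone was therefore below the Dux clone before doxycycline was added. TTTGAA, the core of the cell-cycle homology region, lay in 14 of 42 promoters of the list (33.3%) against 18.3% of all promoters and 12.9% of those of genes tested. The inverted CCAAT box ATTGG lay in 30 of 42 (71.4%) against 37.5% and 41.2%. The stretch of the Kif2c promoter at chr4:117178810-117178935 on the minus strand of GRCm38.p6 (RefSeq) is shown with the reverse complement of TTTGAA in capitals, 103 to 98 bases before the gene start. It was chosen after its values were seen, as an example of a list that fell in the control line.
Kif2c: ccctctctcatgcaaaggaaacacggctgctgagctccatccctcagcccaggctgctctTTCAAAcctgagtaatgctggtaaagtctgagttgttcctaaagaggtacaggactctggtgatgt

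Most S-phase genes fell with luciferase, and with Dux about as many rose as fell. Of 45 tested, 38 were higher and 0 lower in the difference (median 0.99). With luciferase 0 rose and 40 fell (median −0.94). With Dux 15 rose (33.3%) and 13 fell (28.9%), near the 34.1% and 34.8% of all genes tested (median 0.041). The falls became 24 with library size alone. Ccne2 (chromosome 4, 11190433 to 11204779), for cyclin E2, went from 9.85, 10.5 and 10.2 to 19.5, 20.8 and 20.9 CPM with Dux and from 3.98, 3.66 and 4.14 to 0.622, 0.710 and 0.537 CPM with luciferase, without overlap in either line. Its difference was 3.64 (SE 0.173, adjusted p = 1.34e-12). Uhrf1, for a protein that keeps DNA methylation at replication, also rose with Dux (0.93) and fell with luciferase (−2.20). Mcm10, a replication initiation gene, went from 12.9, 13.9 and 14.7 to 16.5, 17.1 and 16.6 CPM with Dux and from 4.04, 4.63 and 4.005 to 0.497, 0.581 and 0.537 CPM with luciferase (3.23), and its call in the Dux response alone was lost without both libraries numbered 1 (0.22, adjusted p = 0.0528) and with library size alone (0.027). Cdc6, which loads the replicative helicase, was not called in the Dux response (0.23) and fell with luciferase (−3.34). Without uninduced Dux library 2 its Dux response was called (0.44, adjusted p = 0.0074).

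Cholesterol synthesis genes, which are driven together by the sterol-sensing factor SREBP2, fell in both lines. All 25 tested fell with Dux (median −1.29) and all 25 with luciferase (median −1.16). Idi1 (chromosome 13, 8885606 to 8892396), for an isomerase of the mevalonate pathway, went from 298, 276 and 276 to 67.4, 65.5 and 73.1 CPM with Dux. In luciferase libraries it went from 89.2, 87.9 and 88.6 to 19.5, 21.5 and 23.7 CPM. Both lines dropped by 2.04 on the log2 scale, and the difference was −0.005 (SE 0.0887, adjusted p = 0.983). Fdps, for an enzyme early in the pathway, had a difference of −0.51 (adjusted p = 5.7e-05).

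Some members fell more with Dux. The difference was lower in 14 of the 25 (56% against 29.5% of all genes tested) and higher in 4 (16% against 30.4%, median −0.36). It was smaller than 0.5 in 14. Fdft1, for squalene synthase, fell from 168, 172 and 166 to 42.8, 38.7 and 36.6 CPM with Dux and from 108, 109.6 and 109.9 to 47.7, 57.1 and 51.8 CPM with luciferase (−1.04, SE 0.0841). Srebf2, which encodes SREBP2, fell from 550.0 to 228 CPM with Dux and from 672 to 557 CPM with luciferase (−1.002). Lss and Insig1, for lanosterol synthase and a sterol sensor, were at −0.99 and −0.97. With library size alone 1 member was higher, and Idi1 was called lower at −0.27. The inverted CCAAT box lay in 16 of 17 promoters of the list (94.1%), against 37.5% of all and 41.2% of those of genes tested, and the sterol response element in 0 of 17, against 0.226% and 0.186%.

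**Figure D3:**
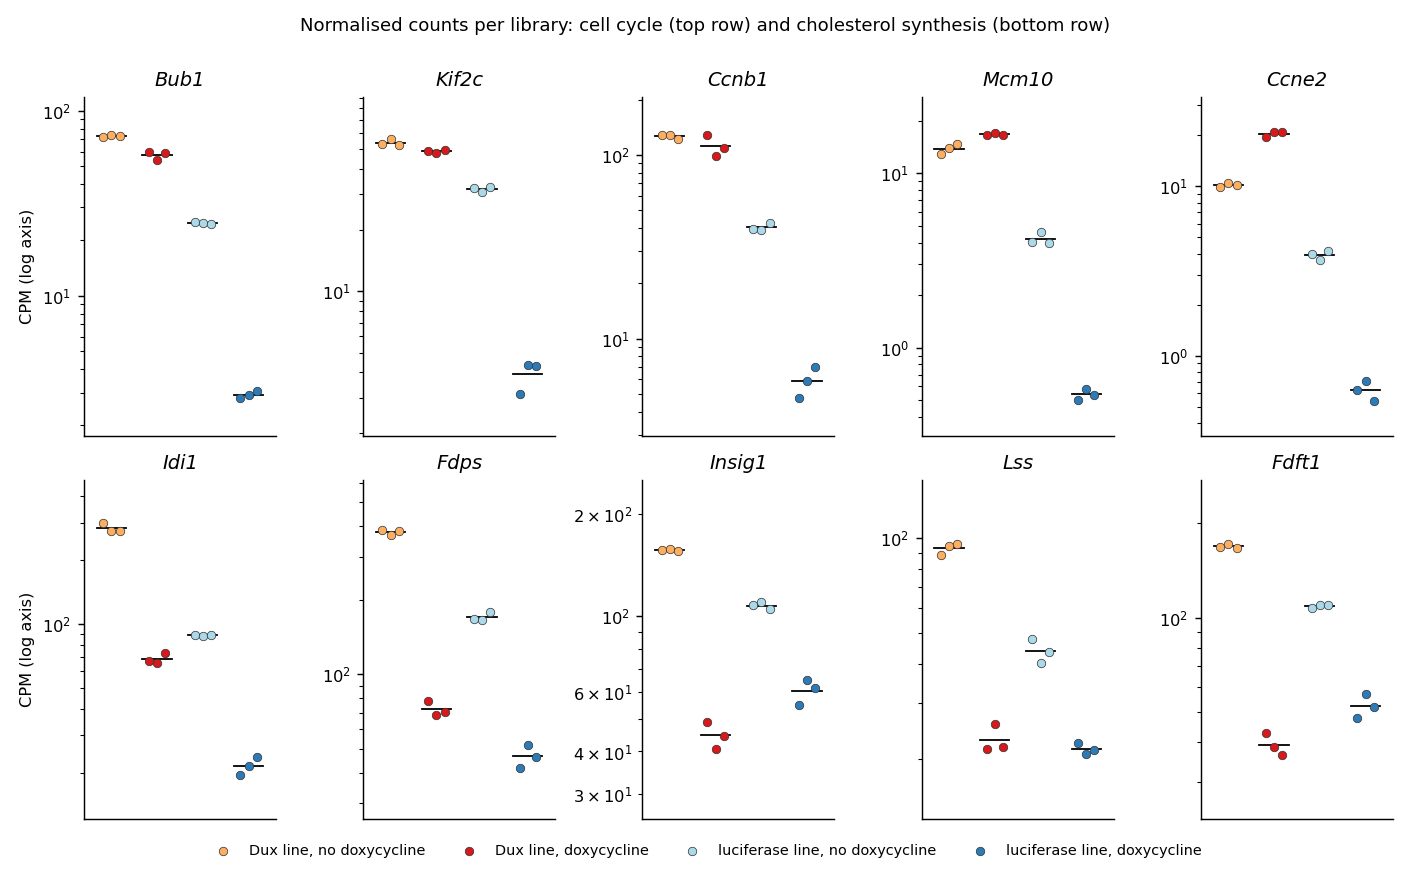
Normalised counts (CPM, log axes) of 5 cell-cycle genes (top) and 5 cholesterol synthesis genes (bottom) in each of the 12 libraries, with group means as bars. Bub1 falls to between 2.80 and 3.04 CPM in induced luciferase libraries and stays between 53.9 and 59.98 CPM in induced Dux libraries, while Idi1 falls in both lines.

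Doxycycline with luciferase raised some genes more than Dux did. Adgrg1, an adhesion receptor gene, went from 10.2, 9.32 and 11.1 to 89.4, 89.5 and 89.4 CPM in the luciferase line and from 16.4, 18.7 and 18.1 to 26.2, 22.1 and 21.8 CPM in the Dux line (difference −2.74, SE 0.124). It rose in both lines without overlap, but far less with Dux (0.40, or 0.15 without a call with library size alone). The long noncoding RNA Neat1, which builds nuclear paraspeckles, went from 247, 204 and 196 to 870.4, 805 and 827 CPM with luciferase and from 823, 888 and 906 to 1734, 1943 and 1855 CPM with Dux (−0.87). Angptl4, for an inhibitor of lipoprotein lipase, and Fam43a had differences of −1.42 and −1.55 and also rose in both lines. Enpp2, for the secreted enzyme autotaxin, rose with luciferase (1.96) and fell with Dux (−0.77). Cdsn, for corneodesmosin, rose with luciferase (1.94) and was not called with Dux (0.29). Genes that rose in both lines with larger gains from Dux included Hdc, for histidine decarboxylase (5.97 and 1.87, the latter call lost without induced library 1 or uninduced library 1 or 3, at 1.51 to 1.63), whose difference of 4.10 lost its call without uninduced luciferase library 2 (3.20, adjusted p = 0.0531). Car6, for a secreted carbonic anhydrase, rose in both with a difference of 0.60 (adjusted p = 0.628).

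Genes called in opposite directions in the 2 lines were ranked by the smaller of their 2 absolute responses, with at least 20 CPM in a group, and the first 8 are described. Csf2rb (chromosome 15, 78325800 to 78351001), for the shared receptor chain of interleukin-3, interleukin-5 and GM-CSF, measured 29.5, 24.9 and 28.4 CPM in uninduced and 1.12, 1.05 and 1.25 CPM in induced Dux libraries. In luciferase libraries it went from 15.2, 15.2 and 13.3 CPM to 47.3, 56.0 and 44.1 CPM. It fell in one line and rose in the other with no overlap, and had the lowest difference of the named genes, −6.33 (SE 0.178, adjusted p = 6.49e-16). The near-identical neighbour Csf2rb2, with which reads may be shared, moved the same way in each line (difference −2.06). Vldlr, a lipoprotein receptor gene, went from 67.1, 59.5 and 64.4 to 11.7, 15.6 and 16.2 CPM with Dux and from 31.4, 30.0 and 31.1 to 104, 75.3 and 87.1 CPM with luciferase (−3.67). The chemokine gene Cxcl12 went from 135, 134 and 133 to 30.4, 26.6 and 27.3 CPM with Dux and from 3.35, 2.56 and 3.66 to 8.15, 8.07 and 8.64 CPM with luciferase (−3.64). These 3 genes fell with Dux and rose with luciferase.

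The other 5 rose with Dux and fell with luciferase. Mcam, a cell adhesion gene, went from 13.8, 14.3 and 11.7 to 46.8, 45.4 and 46.8 CPM with Dux and from 11.5, 11.03 and 11.9 to 2.55, 3.10 and 2.09 CPM with luciferase (3.96, SE 0.169). Rgs16, for a brake on G-protein signals, rose from 2.26 to 34.4 CPM and fell from 1.71 to 0.494 CPM (5.74). Nanos1, for an RNA-binding protein, Rtkn2, and Cnr1, for a cannabinoid receptor, had differences of 4.27, 3.10 and 5.08. The luciferase response of Nanos1 (−1.45, adjusted p = 0.0384) lost its call without any one of induced libraries 2 and 3 and uninduced libraries 2 and 3 (−1.08 to −1.50) and with a replicate block (−1.48, adjusted p = 0.0519). Cnr1 was at 0.424, 0.174 and 0 CPM in uninduced Dux libraries and 30.5, 30.4 and 30.6 CPM in uninduced luciferase libraries, and its difference was 6.02 without both Dux libraries numbered 1.

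**Figure D4:**
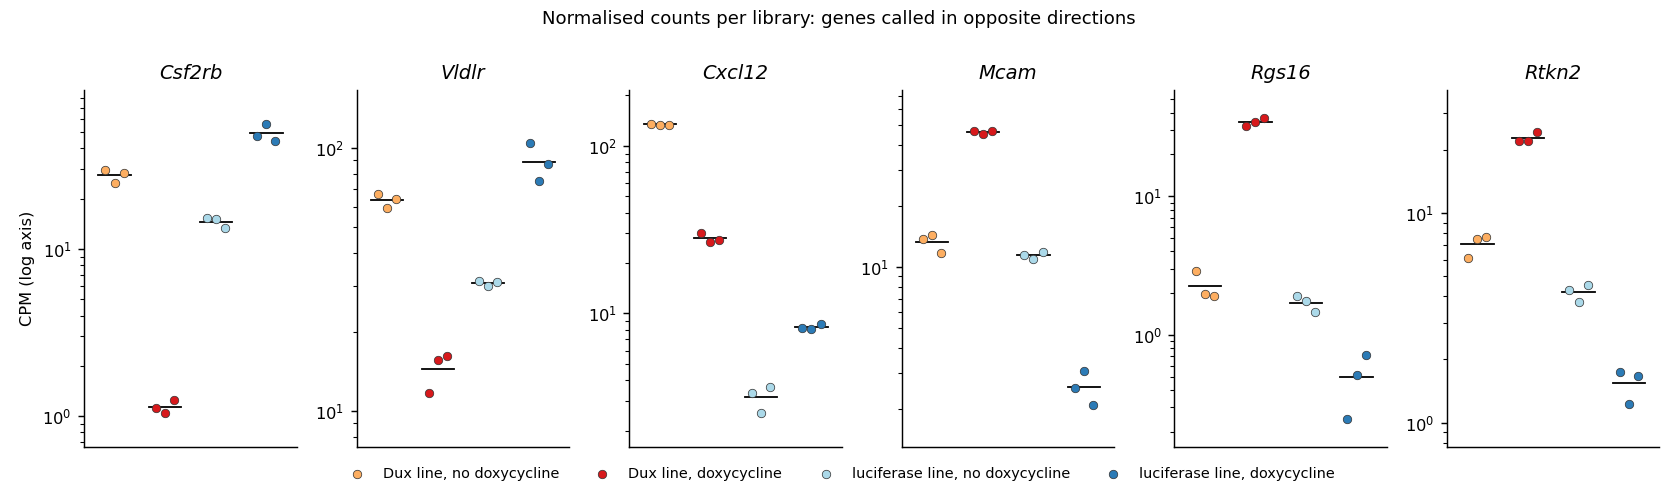
Normalised counts (CPM, log axes) in each of the 12 libraries for 6 of the 8 genes ranked first by the smaller of their 2 opposite responses, with group means as bars. The left 3 panels fall with Dux and rise with luciferase, Csf2rb reaching 1.05 to 1.25 CPM in induced Dux libraries, and the right 3 panels do the reverse.

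Most sarcomere genes fell in both lines. Of 36 sarcomere and contractile genes 21 fell (58.3%) and 2 rose (5.56%) with Dux (median −0.86), against 34.8% and 34.1% of all genes tested. With luciferase 31 fell (86.1%) and 1 rose (2.78%, median −0.77), against 16.4% and 14.7%. In both lines 20 fell. The difference was higher in 7 (19.4%) and lower in 10 (27.8%), against 30.4% and 29.5% of all genes tested. The median was −0.19, or −0.076 over the 27 members with more than 3 counts in every group. Tnnt1, for slow troponin T, went from 34.5, 29.7 and 30.8 to 4.47, 3.38 and 3.22 CPM with Dux and from 68.5, 64.5 and 69.8 to 35.2, 36.4 and 36.8 CPM with luciferase (−2.18). Myl1, for a myosin light chain, rose with Dux from 0.424, 0.290 and 0.446 to 13.2, 9.46 and 11.1 CPM and fell with luciferase from 252, 255 and 256 to 132, 156 and 145 CPM (5.68). All Dux libraries were below all luciferase libraries. Myh1 and Tnni2, for fast myosin and troponin, were at or under 1.15 CPM in the Dux line, and their differences (−2.16 and −1.96) lost their calls when single Dux libraries were left out.

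Of 28 myogenic regulators and myoblast markers, 18 fell (64.3%) and 8 rose (28.6%) with Dux, against 34.8% and 34.1% of all genes tested. With luciferase 18 fell (64.3%) and 4 rose (14.3%), against 16.4% and 14.7%. The difference was higher in 9 (32.1%) and lower in 10 (35.7%), near the 30.4% and 29.5% of all genes tested. The median was 0.017, or −0.24 with library size alone. Myod1, the myoblast determination gene, went from 129.8, 119 and 120.0 to 99.2, 87.0 and 78.1 CPM with Dux and from 199, 196 and 192 to 146, 155 and 148 CPM with luciferase. Both falls were called, and the difference of −0.092 (adjusted p = 0.482) was called only without induced Dux library 1 (−0.20, adjusted p = 0.0095), without both libraries numbered 1 (−0.16) or with library size alone (−0.35). Chrna1, for a subunit of the acetylcholine receptor, fell by 0.35 (log2) in each line. Cdh15, a myoblast cadherin gene, fell more with Dux, from 184, 199.7 and 187 to 54.9, 58.6 and 49.9 CPM, than with luciferase, from 523, 542 and 536 to 402, 413 and 404 CPM (−1.41, SE 0.0781). Des, for the filament protein desmin, rose with Dux (0.40) and fell with luciferase (−0.35). Fgfr4, a receptor gene of myogenic cells, was at −2.04, and Tmem8c, for the fusion protein Myomaker, at −2.02. Myog had a difference of −1.39, or −2.62 without both Dux libraries numbered 1. Myf5 was at −1.84 (adjusted p = 0.0687), and was called at −4.42 without those libraries.

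Respiratory chain genes had small response differences. Nuclear genes of the respiratory chain fell in 24 of 42 cases with Dux and in 28 with luciferase, and 0 rose in either line. Their difference was higher in 6 (14.3% against 30.4% of all genes tested) and lower in 4 (9.52% against 29.5%, median 0.031). It was smaller than 0.5 in all 42. With library size alone 0 were higher and 20 lower (median −0.23), and leaving out any one of uninduced Dux library 2, induced luciferase library 3 and uninduced luciferase library 3 brought the higher count to 3. The list moved with the 2 libraries numbered 1, whose deviations followed transcript length: without them 17 members were lower (median −0.078), and 41 fell with Dux. The subunit genes Ndufa4 and Ndufs4 were at 0.40 and 0.47 (0.14 and 0.20 with library size alone, without a call), and Ndufs8 and Ndufs3 of complex I at −0.47 and −0.36. Induced Ndufs4 values in the Dux line were 53.9, 35.2 and 38.8 CPM, with library 1 the highest. Of 47 genes of mitochondrial translation 16 were higher (34%, near the 30.4% of all genes tested) and 7 lower (14.9% against 29.5%, median 0.16). With library size alone 7 were higher and 16 lower (median −0.11). Without both Dux libraries numbered 1, 13 were higher and 11 lower (median 0.054). The ribosomal protein genes Mrps22 and Mrps28 were at 0.90 and 0.75, or 0.74 and 0.55 without those libraries. The Dux response of Mrps28 was then not called (0.11). Of 31 glycolysis and hypoxia genes 19 were higher (61.3% against 30.4%) and 9 lower (29%, near the 29.5% of all genes tested, median 0.45). The aldolase gene Aldoc rose with Dux (0.78) and fell with luciferase (−1.92, a call lost without any one of induced libraries 1 and 3 and uninduced library 3, at −1.68 to −2.03), while the carbonic anhydrase gene Car9 fell with Dux (−2.58).

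The remaining lists held smaller or mixed differences, beside 30.4% higher and 29.5% lower among all genes tested. Of 28 interferon and antigen presentation genes 11 were higher and 6 lower (median 0.32, or 0.16 over the 24 members with more than 3 counts in every group), among them Irf7, the regulator of interferon genes, from 1.61, 1.39 and 1.53 to 10.6, 10.1 and 10.7 CPM with Dux and 0.921 and 0.936 CPM in the luciferase groups (2.77). Ifit1, Xaf1 and Isg15 were at 2.57, 2.00 and 1.85. The median of 0.32 became 0.060 with library size alone. It was 0.16 without induced luciferase library 3 and 0.46 without induced luciferase library 2. Of 26 NRF2 and oxidative stress genes 6 were higher and 10 lower (median −0.029, or −0.29 with library size alone). The glutathione transferase genes Gstm1 and Gsta4, of a family whose copies may share reads, fell with Dux and rose with luciferase (−2.11 and −2.04). Of 13 Krüppel-like factor genes 4 were higher (30.8%) and 3 lower (23.1%), with a median of 0.037, or −0.22 with library size alone. Klf2 was at 2.64, Klf5 at 2.09 and Klf13 at −0.55. Among the 10 tested markers of cell types other than myoblasts, the difference was higher for 3 and lower for 1 (median 0.46). That median was 1.28 without induced luciferase library 2, 0.26 without uninduced luciferase library 2, 0.24 without both Dux libraries numbered 1, 0.20 with library size alone and 0.88 with only the compared groups in the fit. Lyz2, a myeloid gene, went from 0.552 to 2.63 CPM with Dux, and Tubb3, a neuronal tubulin gene, rose with Dux (0.52) and fell with luciferase (−1.49). Their part in the other results was not tested.

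**Figure D5:**
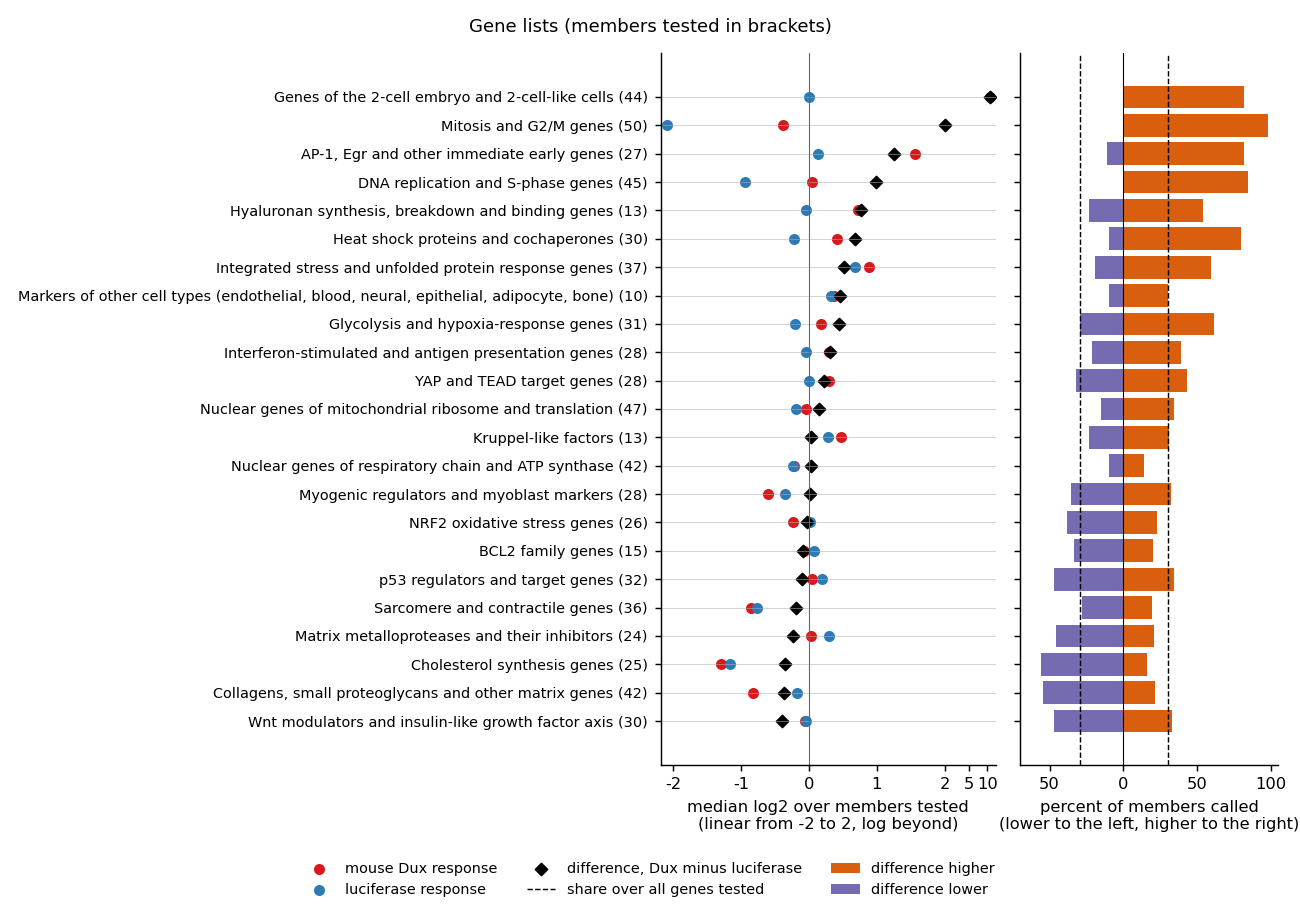
Median log2 value of 23 gene lists (left, linear from −2 to 2 and logarithmic beyond) for the mouse Dux response, the luciferase response and their difference, and the percent of tested members called higher or lower in the difference (right), with dashed lines at 30.4% and 29.5%, the shares over all genes tested. The 2-cell list stands at the top with a median of 11.05, and the G2 and M-phase list follows with a median difference of 2.00 and a luciferase median of −2.48.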

How the data were processed

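The authors deposited 1 table of whole-number counts per gene for 18 poly(A) RNA-seq libraries. Per the submitters' processing notes, reads were handled with CASAVA, TopHat2 2.0.12 and Bowtie2 2.2.3 on mm10. For the counter, annotation and strand setting, nothing is given in the sources used here. Of 24028 genes, 5017 had no count, 27 symbols that had been turned into dates were restored, and 5 symbols were missing. Columns were matched to libraries by name. R 4.3.3 and edgeR 4.0.16 were used with filterByExpr, TMM factors and a quasi-likelihood F test on 6 group means over all 18 libraries, with Benjamini-Hochberg adjustment over 13602 genes. A gene was called at an adjusted p under 0.05. The response difference was the contrast of both responses in that fit, and its standard error is the log2 value over the square root of F. Total counts ran from 11010586 to 17179642. The common dispersion, estimated among replicates over all 18 libraries, corresponded to a biological coefficient of variation of 6.25%. A count of 0 was compared at a floor of 3 counts over the group.

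Members and the 23 gene lists (763 of 772 genes matched) were chosen with earlier results of these data known, so no list is independent support. Named genes were the 5 markers, the 12 highest and 12 lowest differences with at least 20 CPM in a group, up to 4 called members of each list, the 8 highest and 8 lowest luciferase responses, 8 genes each of like and opposite responses, and 4 genes without uninduced counts. Those genes other than markers had more than 3 counts in each group where the difference ranked them. Some genes that the rule names are not reported here, and genes named outside it were chosen after their values were seen. Positions and promoter sequences are from RefSeq on GRCm38.p6, matched by Entrez identifier. Motifs were searched on both strands of the 250 bases before the start. Deviations from the group means were correlated between induced and uninduced libraries of the same number. These correlations were 0.702, 0.51 and 0.489 in the Dux line and −0.0181, 0.0862 and −0.0181 in the luciferase line. Dux libraries 2 and 3 correlated about as well across numbers, at 0.539 and 0.471. This check thus set the Dux libraries numbered 1 apart and did not pair libraries 2 and 3 by number. Nor did it pair luciferase libraries. The labels name no shared source for a number. The script was tested on simulated data. Alternatives were limma 3.58.1 (voom with sample quality weights), DESeq2 1.42.0, other scalings and filters, a replicate block and leaving out libraries. Leaving out both Dux libraries numbered 1 was chosen after seeing the data.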

Additional observations from a re-analysis of the deposited data

Results flagged for a closer look

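The responses of the Dux and luciferase lines to doxycycline differed, by the interaction term of the edgeR fit, in 4139 genes upward and in 4017 genes downward.

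Among the genes with called responses of opposite sign, 8 were taken by the smaller of their 2 absolute responses. The difference was 3.96 for Mcam, 5.74 for Rgs16, 4.27 for Nanos1, 3.10 for Rtkn2 and 5.08 for Cnr1, which rose with Dux and fell with luciferase. It was −6.33 for Csf2rb, −3.67 for Vldlr and −3.64 for Cxcl12, which fell with Dux and rose with luciferase. Each of these signs was seen in 3 of 3 induced libraries of either line against every uninduced library of that line.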

How the results depend on the processing

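The response difference gave between 3929 and 4771 genes higher and between 3672 and 4462 lower under alternatives other than library size alone and single libraries left out. The count of genes with a strongly higher Dux response was 1473 with no filter on low counts, against 931. Luciferase gave 3110 genes higher with voom and 3032 when only the compared groups were fitted, against 2004, and 21 strongly higher in the latter fit, against 36. With library size alone the Itga7 difference was −0.17, against 0.091 with no call. The Dux response of Ndufa4, 0.004 with no call, was −0.24 with library size alone, −0.11 without both libraries numbered 1, and between −0.16 (without induced library 1) and 0.10 (without induced library 2) when single libraries were left out. The cause was not tested in these cases. Of the values of named genes in the difference under an alternative, 2744 kept their direction and side of the threshold, 21 lost and 13 gained a call, 21 without a call moved and 1 reversed.

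Leaving out single libraries gave 3903 to 4446 genes higher and 3809 to 4468 lower in the difference, with 809 to 872 and 315 to 344 of them strong. It gave 4426 to 4800 higher and 4478 to 5114 lower for Dux, with 949 to 992 and 278 to 304 strong, and 1543 to 1714 higher and 1809 to 1910 lower for luciferase, with 30 to 42 and 127 to 145 strong.

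With the replicate block the difference gave 4184 genes higher and 4155 lower, Dux 4697 and 4876 and luciferase 2219 and 2386. Besides the calls on Ccnb1 and Nanos1 given with those genes, the block called the luciferase responses of Fos (0.42, adjusted p = 0.0172) and Mrps22 (−0.24, adjusted p = 0.0419), and among the named genes it changed no other call. Induced Dux library 2 correlated best with uninduced library 3 (0.539), not with its own number. Depth limits genes with a few counts: 21 of 44 tested 2-cell genes had 3 counts or fewer in at least 1 group.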

Other observations

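The clones differed before doxycycline was added. Col1a1, a collagen chain gene, was at 9.20 ± 2.054 CPM (SD, n = 3) in uninduced Dux libraries and at 6158 ± 132 CPM in uninduced luciferase libraries. Myog, a driver of muscle differentiation, was at 2.32 ± 0.612 and 194 ± 5.83 CPM, the decorin gene Dcn at 4.36 ± 0.134 and 139 ± 0.256 CPM, and Myl1 at 0.387 ± 0.0845 and 254 ± 2.23 CPM. The Wnt antagonist gene Sfrp2 was the other way round, at 311 ± 13.2 and 7.01 ± 1.07 CPM. A log2 difference of responses compares changes from these unequal levels. The 5 Tdpoz genes of the 2-cell list, summed, were at 0.058 ± 0.10 CPM in uninduced and 196 ± 12.8 CPM in induced Dux libraries, and at 0.041 ± 0.070 and 0.060 ± 0.103 CPM in the luciferase groups.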
